A study of Mus musculus with 6 samples.

Results

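The Hox genes described here are the protein-coding members of the Hoxa, Hoxb, Hoxc and Hoxd clusters, taken from the deposited expression table by biotype and gene symbol. The rule found 39 genes among 52636 rows, with 11 genes in Hoxa, 10 in Hoxb, 9 in Hoxc and 9 in Hoxd. RNA was sequenced from MC-38 mouse colon tumor cells that had been grown under the skin of the right flank of untreated female mice, 6 to 10 weeks old, and sorted by flow cytometry from the digested tumors. The 3 control libraries carried the genotype label M1E5-Thy1.1. The other 3 carried MC-38 M1E5-Zfx-KO-Thy1.2, made by targeting Zfx with CRISPR ribonucleoprotein. Of these genotype labels only the second names MC-38. Thy1.1 and Thy1.2 are allelic forms of a surface protein, and this label changed with the genotype in all 6 libraries. Both groups share the M1E5 label, the meaning of which the sources used here do not give. The strain of the mice, the sort marker, the cut site and whether each library came from its own mouse are also not given. The p-values thus measure only library-to-library spread, which may be technical. The series title speaks of clones, and the labels do not say how many clones stand behind each group.

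Hox genes encode homeodomain transcription factors that give cells their position along the body axis. Within a cluster they lie in the order of their paralog numbers, with group 1 at the 3' end and group 13 at the 5' end, and the order along the chromosome follows the order of expression from head to tail. Cells keep the set of Hox genes of their place of origin into adult life and in culture, held by Polycomb complexes that silence and Trithorax complexes that keep genes active, and colon epithelium and connective tissue each have such a set.

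Zfx was checked first. It stood at 51.2, 58.7 and 44.1 CPM (a gene's reads per 1000000 reads of its library) in the controls and at 78.7, 84.7 and 74.7 CPM in the Zfx-KO-labelled libraries. Every Zfx-KO-labelled library was above every control, with a log2 difference of 0.64 (SE 0.10, limma adjusted p = 0.000473) and an exact two-sided permutation p of 0.1, the smallest that 3 against 3 libraries can give. RNA of the targeted gene was thus higher, not lower, under the Zfx-KO label. Each value counts the reads of the gene as a whole, without their positions. Protein was not measured, so these values do not show whether the Zfx protein was lost. No loss of Zfx RNA was seen, so each direction below is that of the label. Depth ran from 37763101 to 65050908 reads, so 3 reads equal 0.0461 to 0.0794 CPM. Markers of other cells moved along: 11 of 11 endothelial markers (summed level 22.1 to 29.1 CPM in the controls and 115 to 144 CPM in the Zfx-KO-labelled libraries, with Erg at 0 reads in the controls), 8 of 8 pericyte markers (310.4 to 359.7 against 534 to 680.6 CPM, with Abcc9 at 0 reads in the controls) and 8 of 10 fibroblast markers (8172 to 9792 against 14020 to 17140 CPM) were higher, and 1 fibroblast marker was lower. Of 7 tested leukocyte markers 1 was higher, and their summed levels overlapped at 22.0 to 85.7 and 49.7 to 109 CPM. None of 2 erythroid markers was called. The labels name colon as the tissue, but of the intestinal epithelial markers Cdx2 had 0 reads in all libraries and Epcam at most 2, while Krt8 had 2, 0 and 3 reads in the controls and 524, 738 and 1309 reads in the Zfx-KO-labelled libraries. Of the 5 tested epithelial markers 2 were higher, with summed levels of 1.08 to 1.82 and 15.7 to 22.2 CPM over all 9. These marker counts stand beside 24.9% higher and 19.5% lower of all 20094 genes tested. The part of the cells behind these markers in the Hox differences was not tested, and in such bulk samples fewer cells of a type and less RNA per cell cannot be told apart.

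Genes of all 4 clusters were expressed in the controls, and the summed Hoxd level was much lower in the Zfx-KO-labelled libraries. In the controls the Hox genes summed to 455, 481 and 460 CPM, and in the Zfx-KO-labelled libraries to 297, 322 and 287 CPM. The groups did not overlap, and the mean sum was 465 ± 13.8 CPM (SD, n = 3) against 302 ± 17.9 CPM (SD, n = 3). Hoxd genes made up 33.2% ± 0.719 of all Hox reads in the controls and 13.9% ± 0.597 in the other group (SD, n = 3). The shares of the other clusters were 28.3% and 37.7% for Hoxa, 3.71% and 7.99% for Hoxb, and 34.8% and 40.4% for Hoxc, in the controls and in the Zfx-KO-labelled libraries.

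**Figure D1:**
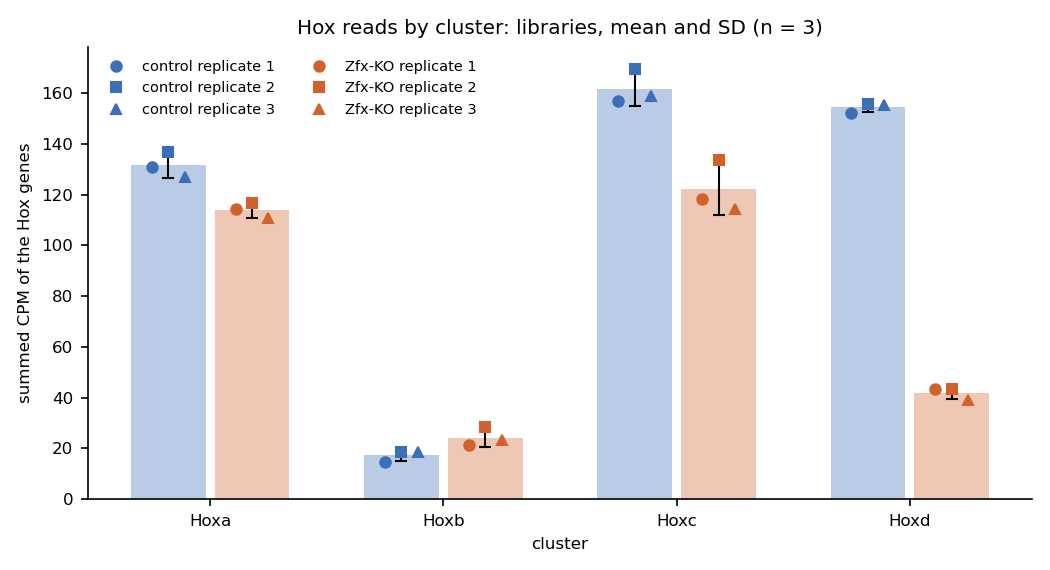
Summed CPM of the Hox genes of each cluster (vertical axis) in control and Zfx-KO libraries; points are libraries, bars are means and error bars are SD (n = 3). The Hoxd sum was 154 ± 1.92 CPM in the controls and 41.9 ± 2.49 CPM in the Zfx-KO-labelled libraries, 3.68-fold lower, while the Hoxa means were 132 and 114 CPM.

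Of the 39 genes, 36 had at least 1 read in some library and 33 passed the filter on low values. Among these 33, the limma test called 16 (48.5%) at an adjusted p under 0.05, 7 higher and 9 lower in the Zfx-KO-labelled libraries, beside 44.4% of all 20094 genes tested (24.9% higher and 19.5% lower). The share of Hox genes called was thus near that of all genes and is not a result about the Hox genes as a group. Among the 33, 21 had groups without overlap, 8 higher and 13 lower, beside 54.1% of all genes tested, 30.7% higher and 23.5% lower. Changes of at least 2-fold were called for 9 of the 33 (27.3%), 4 higher and 5 lower, beside 15.3% of all genes, 11.6% higher and 3.65% lower. Of those 4, Hoxb2, Hoxb7 and Hoxb8 passed the filter mainly or only through the Zfx-KO-labelled libraries, and none of the 3 was tested under a stricter filter (a mean at least 3 log2 units above the floor), so the share above 2-fold is not read against that of all genes. The median log2 difference was -0.11 for the Hox genes and 0.09 for all genes tested. Equal medians and quantile normalization moved the median of all genes by -0.21 and -0.17, and they changed the split to 6 higher and 15 lower and to 3 higher and 14 lower. Small differences are therefore best read relative to that shift.

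**Figure D2:**
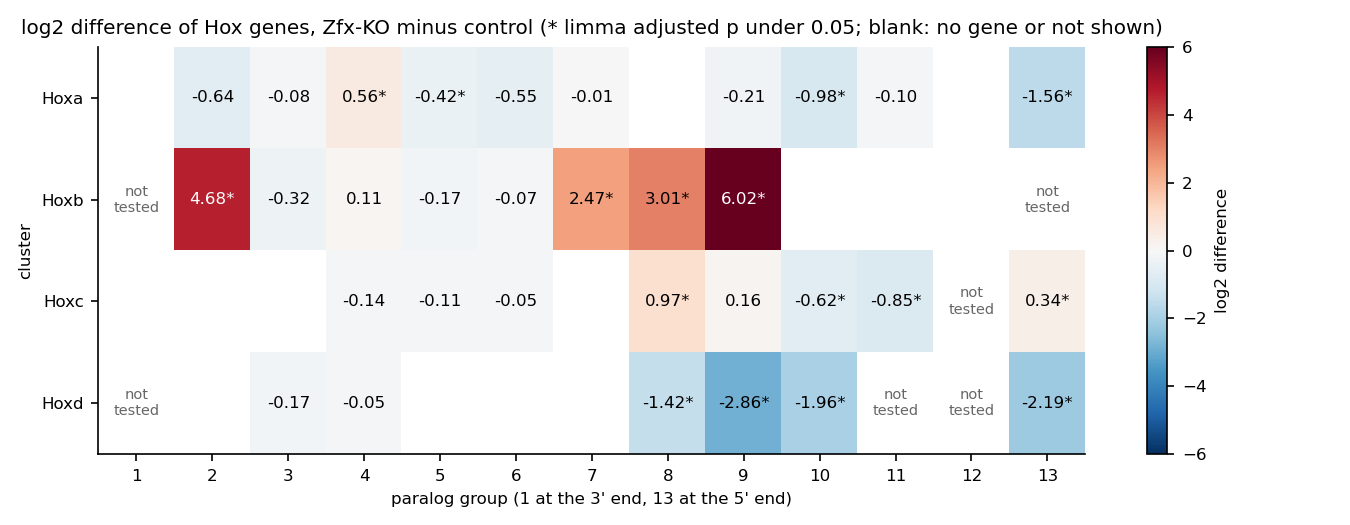
Log2 difference of Hox genes, Zfx-KO minus control, with clusters as rows and paralog groups 1 to 13 as columns; stars mark a limma adjusted p under 0.05 and blank cells have no gene or are not shown. The 4 called Hoxd genes had log2 differences of -2.86 to -1.42 and the 4 called Hoxb genes of 2.47 to 6.02. Of these Hoxb genes, only a rise could be called for Hoxb2, Hoxb7 and Hoxb8.

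By position, calls were most frequent at the 5' ends. In paralog groups 9 to 13, 9 of 12 tested genes (75.0%) were called, 2 higher and 7 lower. In groups 4 to 8, 6 of 15 (40.0%) were called, 4 higher and 2 lower, and in groups 1 to 3 only Hoxb2 of 6 tested genes (16.7%) was. Of all genes tested 44.4% were called, 24.9% higher and 19.5% lower. The tested genes of groups 1 to 3 had mean levels of at most 5.30 CPM and SEs of 0.16 to 0.54. In groups 9 to 13 the SEs ran from 0.05 (Hoxc10) to 0.35 (Hoxb9). The part of expression level in these shares was not tested. These shares were not compared by a test, since neighbouring genes share a locus and are not replicates. By cluster, 4 of 6 tested Hoxd genes were lower and 4 of 8 Hoxb genes were higher. Hoxc had 2 higher and 2 lower of 8, and Hoxa had 1 higher and 3 lower of 11. The counts of higher genes by position and by cluster include Hoxb2, Hoxb7 and Hoxb8. These passed the filter mainly or only through the Zfx-KO-labelled libraries, so only a rise could be called for them.

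Per kilobase of exon, which allows levels of different genes to be compared, Hoxc10 was the most abundant Hox gene in both groups, at 52.3 ± 0.202 CPM per kb in the controls and 34.0 ± 1.12 in the Zfx-KO-labelled libraries (SD, n = 3). Hoxd9 came next in the controls at 22.2 ± 1.02 CPM per kb and took place 12 in the Zfx-KO-labelled libraries at 3.05 ± 0.284. Hoxa7 (19.2 ± 1.17 CPM per kb) and Hoxd8 (18.8 ± 0.637) followed in the controls and did not differ from each other beyond their spread. In the Zfx-KO-labelled libraries the places after Hoxc10 were held by Hoxa7 at 19.1 CPM per kb, Hoxc6 at 13.5 and Hoxd8 at 7.01. Hoxd13 moved from place 6 to place 15 and Hoxd10 from place 7 to place 16 of the 39 genes.

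**Figure D3:**
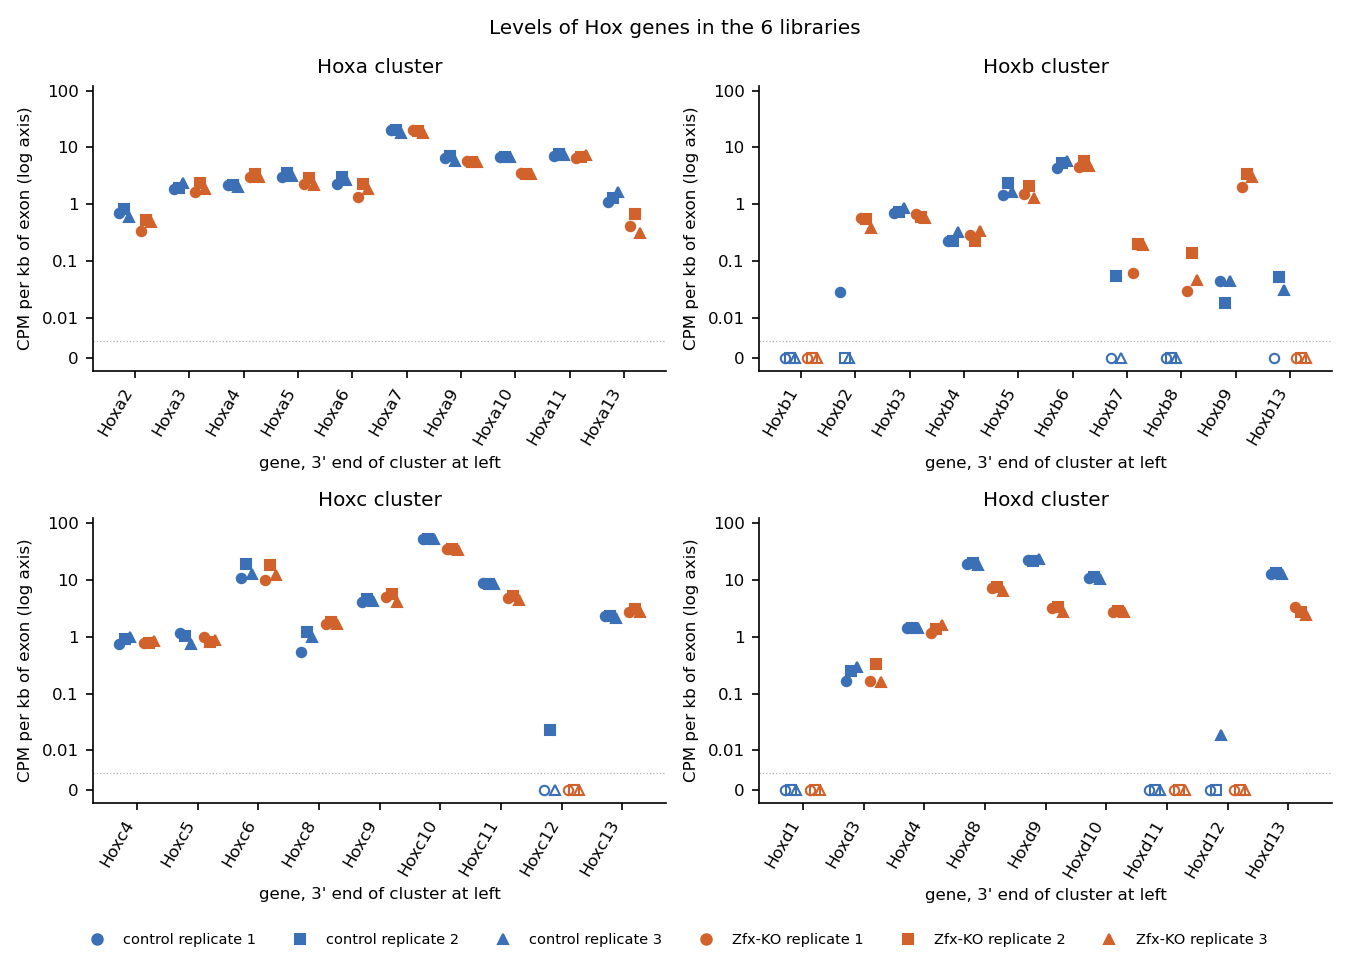
Level of Hox genes in each library in CPM per kb of exon (log axis, open symbols at the bottom for 0 reads), in 4 panels by cluster with the 3' end at the left. Control and Zfx-KO symbols separate at Hoxd8, Hoxd9, Hoxd10 and Hoxd13 and at Hoxb2 and Hoxb7 to Hoxb9, and they overlap at Hoxa7, Hoxb4 to Hoxb6, Hoxc6, Hoxd3 and Hoxd4.

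The Hoxd cluster spans 96.8 kb, chr2:74668310-74765142 in GRCm38 (mm10), and held the largest falls. Hoxd13, Hoxd10, Hoxd9 and Hoxd8, all the 5' genes of this cluster with more than 2 reads, were lower together in the Zfx-KO-labelled libraries. The promoter windows of these genes, 300 bases around the start that RefSeq annotates, which need not be the start in the deposited table, are shown with that of Hoxd4, the next gene in paralog order, which was not called. The sequences are from RefSeq (GRCm38.p6), 5' to 3', and capitals mark matches to the motifs searched.
Hoxd13, chr2:74667975-74668274, plus strand: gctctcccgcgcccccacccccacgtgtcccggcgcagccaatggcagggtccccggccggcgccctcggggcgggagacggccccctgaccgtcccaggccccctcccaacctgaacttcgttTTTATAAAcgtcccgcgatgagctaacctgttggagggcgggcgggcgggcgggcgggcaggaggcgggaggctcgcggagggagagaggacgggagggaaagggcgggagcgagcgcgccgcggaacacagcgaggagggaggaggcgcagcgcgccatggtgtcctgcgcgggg
Hoxd10, chr2:74691641-74691940, plus strand: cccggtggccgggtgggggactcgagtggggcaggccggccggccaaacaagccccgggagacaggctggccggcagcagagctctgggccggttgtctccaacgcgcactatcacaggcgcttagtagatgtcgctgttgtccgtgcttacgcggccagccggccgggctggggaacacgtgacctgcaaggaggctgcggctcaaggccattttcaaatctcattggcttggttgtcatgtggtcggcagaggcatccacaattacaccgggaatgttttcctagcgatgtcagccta
Hoxd9, chr2:74697513-74697812, plus strand: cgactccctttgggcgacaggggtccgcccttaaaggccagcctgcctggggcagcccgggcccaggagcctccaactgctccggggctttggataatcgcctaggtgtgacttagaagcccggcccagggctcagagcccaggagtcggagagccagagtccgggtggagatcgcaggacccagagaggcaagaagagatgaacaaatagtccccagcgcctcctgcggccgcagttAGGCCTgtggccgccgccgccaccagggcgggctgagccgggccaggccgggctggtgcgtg
Hoxd8, chr2:74704365-74704664, plus strand: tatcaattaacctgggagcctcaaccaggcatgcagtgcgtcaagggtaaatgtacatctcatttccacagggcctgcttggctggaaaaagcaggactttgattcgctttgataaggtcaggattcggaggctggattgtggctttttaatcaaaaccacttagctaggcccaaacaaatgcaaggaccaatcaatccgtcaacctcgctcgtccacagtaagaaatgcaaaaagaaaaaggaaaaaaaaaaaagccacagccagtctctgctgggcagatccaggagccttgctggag
Hoxd4, chr2:74721728-74722027, plus strand: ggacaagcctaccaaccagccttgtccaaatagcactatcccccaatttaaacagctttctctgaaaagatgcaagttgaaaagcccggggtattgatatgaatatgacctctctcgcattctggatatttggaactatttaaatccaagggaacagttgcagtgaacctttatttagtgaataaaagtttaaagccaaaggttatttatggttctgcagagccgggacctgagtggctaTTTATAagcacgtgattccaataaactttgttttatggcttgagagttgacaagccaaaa
Windows were found for 22 of the 39 Hox genes, 24 windows in all. On both strands, AGGCCT, the core of the ZFX binding motif, was present in 4.17% of these Hox windows, namely the Hoxd9 window, and in 10.3% of all 32851 windows. TATAAA, the TATA box, was present in 16.7% and 13.6%, with a pair of matches that overlap each other on opposite strands in Hoxd13 and a match in Hoxd4. TGACAG, bound by MEIS factors, was present in 8.33% and 19.2%, and TGATNNAT, bound by PBX with HOX, in 16.7% and 8.85%. A match is only a run of letters in the window and does not show binding. The Hoxd13, Hoxd10, Hoxd9, Hoxd8 and Hoxd4 windows held 37, 22, 20, 6 and 4 CG dinucleotides, beside a median of 14.5 over the Hox windows and 7 over all windows.

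Hoxd9 (ENSMUSG00000043342, chr2:74697727-74700208), of a paralog group that acts in the lumbar spine and the upper forelimb, stood at 47.0, 45.4 and 49.7 CPM in the controls and at 6.73, 6.98 and 5.83 CPM in the Zfx-KO-labelled libraries. The groups were far apart, and every Zfx-KO-labelled library was below every control. The log2 difference was -2.86 (SE 0.09, limma adjusted p = 2.27e-08), the deepest fall of any Hox gene. Hoxd13 (chr2:74668310-74671599), the last gene of the cluster, which patterns digits and the genital and anal region, stood at 30.9, 32.05 and 31.8 CPM in the controls and at 8.10, 6.83 and 5.95 CPM in the Zfx-KO-labelled libraries. Its log2 difference was -2.19 (SE 0.11, adjusted p = 3.07e-07), and the groups did not overlap.

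Hoxd10 (chr2:74691924-74695105), which acts in the hindlimb and in lumbar motor neurons, stood at 19.3, 20.4 and 18.7 CPM in the controls and at 4.98, 5.08 and 4.92 CPM in the Zfx-KO-labelled libraries. The lower values lay close together, and the log2 difference was -1.96 (SE 0.09, limma adjusted p = 1.85e-07). Hoxd8 (chr2:74704615-74707933) stood at 50.8, 53.6 and 50.4 CPM in the controls and at 19.97, 20.04 and 17.7 CPM in the Zfx-KO-labelled libraries. It fell least of the 4, with a log2 difference of -1.42 (SE 0.07, adjusted p = 3.18e-07). All 4 calls held in each of the 14 alternative settings.

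The 3' Hoxd genes Hoxd4 and Hoxd3 were not called. Hoxd4, of a group that patterns the hindbrain and neck, stood at 3.68, 3.58 and 3.65 CPM in the controls and at 3.02, 3.45 and 4.15 CPM in the Zfx-KO-labelled libraries. The groups overlapped (log2 difference -0.05, SE 0.16, limma adjusted p = 0.823). Hoxd3 lay between 0.507 and 1.07 CPM in all libraries (log2 difference -0.17, SE 0.36, adjusted p = 0.750). Hoxd1 and Hoxd11 had 0 reads in every library, which allows at most 0.0461 to 0.0794 CPM, and Hoxd12 had 2 reads in 1 control. Hoxd11 and Hoxd12 were thus at or near 0 between Hoxd10 and Hoxd13. Exons of Hoxd10 overlap Gm28309, and those of Hoxd3 and Hoxd4 overlap Gm28230 and, for Hoxd3, Hoxd3os1. How strand was handled is not stated, so values of overlapping genes are uncertain.

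The Hoxb cluster spans 173.9 kb, chr11:96194316-96368256, and held the largest rises among the Hox genes. Hoxb9, Hoxb8, Hoxb7 and Hoxb2 were near 0 in the controls and were called higher in the Zfx-KO-labelled libraries, while the 4 genes between them, Hoxb3 to Hoxb6, were not called. Hoxb9 (ENSMUSG00000020875, chr11:96271457-96276595), which acts in the thoracic skeleton, had 5, 2 and 5 reads in the controls and 199, 340 and 502 reads in the Zfx-KO-labelled libraries. The groups did not overlap, and the log2 difference was 6.02 (SE 0.35, limma adjusted p = 6.84e-07). The pooled CPM level was 78.8-fold higher, with a 95% exact interval of 44.9 to 153 that covers counting error only. At 2.83 ± 0.718 CPM per kb in the Zfx-KO-labelled libraries, Hoxb9 remained below Hoxb6 at 4.94 ± 0.652 (SD, n = 3).

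The other 3 called Hoxb genes were scarce, and they passed the filter on low values mainly through the libraries where they were high, so a rise was the only direction open to them. Hoxb2 (chr11:96351631-96354012), which patterns the hindbrain, had 2, 0 and 0 reads in the controls and 35, 35 and 41 reads in the Zfx-KO-labelled libraries. The groups did not overlap (log2 difference 4.68, SE 0.54, limma adjusted p = 6.27e-05), and the ratio of pooled CPM levels was 50.4 (95% exact interval 13.6 to 421). Hoxb8, of the trunk groups and known for its part in blood progenitors and microglia, had 0 reads in the 3 controls and 3, 14 and 8 reads in the Zfx-KO-labelled libraries. Against a floor of 3 reads over the control group it was 7.57-fold higher, a value that leaves out the counting error of its own reads. Its limma adjusted p was 0.00272.

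Hoxb7, often studied in tumor cells, had 0, 3 and 0 reads in the controls and 3, 10 and 16 reads in the Zfx-KO-labelled libraries. In CPM the lowest Zfx-KO-labelled library, at 0.0794, lay just above the highest control, at 0.0698. The ratio of pooled CPM levels was 8.78 (95% exact interval 2.72 to 45.0) with a limma adjusted p of 0.0163, and the call was lost without control replicate 3 (adjusted p = 0.0556), without Zfx-KO replicate 2 (0.0702), without Zfx-KO replicate 3 (0.0725), with quantile normalization (0.0677) and with no filter (0.372). With no filter on low values, Hoxb8 was also not called (adjusted p = 0.233). Leaving out any one of the Zfx-KO-labelled libraries took Hoxb8 below the filter, so it was not tested there, nor under the stricter filter.

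The middle of the cluster, from Hoxb6 to Hoxb3, was not called. Hoxb6 stood at 8.56, 10.7 and 11.4 CPM in the controls and at 8.79, 11.2 and 9.16 CPM in the Zfx-KO-labelled libraries, and the groups overlapped (log2 difference -0.07, SE 0.14, limma adjusted p = 0.713). Hoxb5 ranged from 2.40 to 4.52 CPM over all libraries and Hoxb4 from 0.576 to 0.861 CPM, with log2 differences of -0.17 (SE 0.23) and 0.11 (SE 0.29). Hoxb3 was 2.52, 2.54 and 3.09 CPM in the controls and 2.38, 2.15 and 1.98 CPM in the Zfx-KO-labelled libraries, and although the groups did not overlap it was not called (log2 difference -0.32, SE 0.17, adjusted p = 0.164). It was called lower with equal medians (adjusted p = 0.0269) and quantile normalization (0.00707). Hoxb1 had 0 reads in every library. Hoxb13, a marker of the hindgut and prostate, had 0, 5 and 3 reads in the controls and 0 in the Zfx-KO-labelled libraries. Against a floor of 3 reads over the Zfx-KO-labelled group it was 2.94-fold lower, without the counting error of its control reads. Hoxb13 was not tested.

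A long noncoding RNA, Gm53 (chr11:96251105-96264868), lies between Hoxb13 and Hoxb9 and showed the largest difference of any row inside a Hox cluster. It had 3, 5 and 8 reads in the controls and 680, 1064 and 1599 reads in the Zfx-KO-labelled libraries. The groups were far apart, with a log2 difference of 7.37 (SE 0.30, limma adjusted p = 8.31e-08) and a ratio of pooled CPM levels of 190 (95% exact interval 117 to 332). The miRNA gene Mir196a-1 lies between Gm53 and Hoxb9. Its row had 0 reads in the controls and 3, 28 and 14 reads in the Zfx-KO-labelled libraries. Against a floor of 3 reads over the control group it was 13.6-fold higher (limma adjusted p = 0.00235, and 0.180 with no filter). Like Hoxb8, it passed the filter only through the Zfx-KO-labelled libraries, so only a rise could be called, and it was not tested without any one of them or under the stricter filter. What RNA gave these reads was not tested. Hoxb3os, whose exons overlap those of Hoxb2 and Hoxb3 on the other strand, had 0, 0 and 1 reads in the controls and 7, 3 and 4 reads in the Zfx-KO-labelled libraries. Hoxb3os passed the filter mainly through the Zfx-KO-labelled libraries, so a rise was the only direction open to it. Its adjusted p was 0.0176, and the call was lost without control replicate 1 (0.0504), without Zfx-KO replicate 1 (0.103), with quantile normalization (0.155) and with no filter (0.431).

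**Figure D4:**
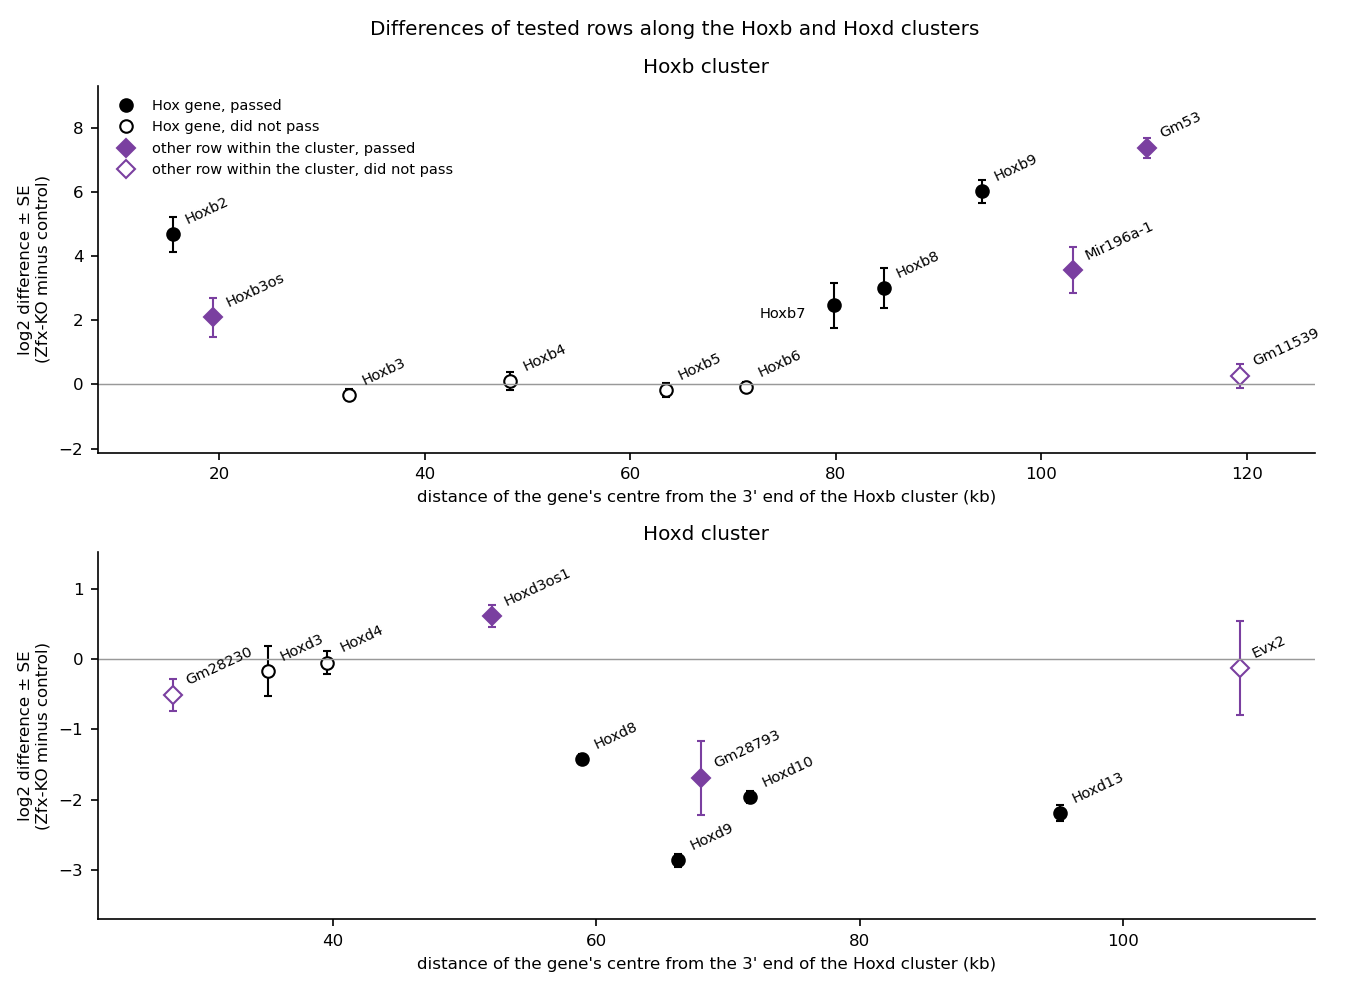
Log2 difference (Zfx-KO minus control, error bars SE) of each tested Hox gene (circles) and other tested row (diamonds) against its distance in kb from the 3' end of the cluster, for Hoxb (upper panel) and Hoxd (lower panel); filled symbols passed a limma adjusted p under 0.05. In Hoxb, Gm53 (7.37) and Hoxb9 (6.02) stood highest with Hoxb3 to Hoxb6 near 0, and in Hoxd, Hoxd9 (-2.86) stood lowest with Hoxd3 and Hoxd4 near 0.

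The Hox clusters also hold miRNA genes of the miR-196 and miR-10 families, which repress Hox messenger RNAs. Their mature sequences from RefSeq (GRCm38.p6) are shown with the seed, bases 2 to 8, in capitals, because the family members share it across clusters.
mmu-miR-196a-5p: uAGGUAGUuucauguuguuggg
mmu-miR-196b-5p: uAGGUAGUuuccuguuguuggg
mmu-miR-10a-5p: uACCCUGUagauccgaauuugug
mmu-miR-10b-5p: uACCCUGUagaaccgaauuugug
The 2 miR-196 forms share the seed AGGUAGU, and the 2 miR-10 forms share ACCCUGU. The miR-196a-5p sequence is encoded by Mir196a-1 (chr11:96265187-96265208, plus strand) and by Mir196a-2 in Hoxc (chr15:102973365-102973386, plus strand). The rows of Mir196a-2, Mir196b, Mir10a, Mir10b and Mir615 had 0 reads in all 6 libraries. Mature miRNA levels were not measured.

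The Hoxa cluster lies on chromosome 6, and 4 of its 11 genes, all of them tested, were called. The clear changes were again at the 5' side. Hoxa10, which acts in the lumbar skeleton and the uterus, stood at 21.6, 21.4 and 21.3 CPM in the controls and at 11.2, 10.5 and 10.7 CPM in the Zfx-KO-labelled libraries. The replicates lay close together and the groups did not overlap, with a log2 difference of -0.98 (SE 0.08, limma adjusted p = 4.80e-06). Hoxa13, which patterns the digits, hindgut and bladder, stood at 2.76, 3.14 and 4.12 CPM in the controls and at 1.03, 1.67 and 0.769 CPM in the Zfx-KO-labelled libraries. Its log2 difference was -1.56 (SE 0.29, adjusted p = 0.00139), and with no filter the adjusted p was 0.0552.

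Hoxa11 and Hoxa9 lie on either side of Hoxa10 and were not called. Hoxa11 stood at 16.2, 17.8 and 16.9 CPM in the controls and at 15.2, 15.8 and 16.6 CPM in the Zfx-KO-labelled libraries, and the groups overlapped (log2 difference -0.10, SE 0.08). Hoxa9, known as a driver in leukemia, was at 20.7, 23.2 and 18.8 CPM in the controls and at 18.3, 17.8 and 17.97 CPM in the Zfx-KO-labelled libraries, with no overlap (log2 difference -0.21, SE 0.09, limma adjusted p = 0.0819). It was called lower without control replicate 3 (0.0288), with equal medians (0.00217) and with quantile normalization (0.0353). Exons of Hoxa11 overlap Hoxa11os, an antisense RNA that stood at 9.55, 11.2 and 11.1 CPM in the controls and at 12.4, 12.4 and 12.8 CPM in the Zfx-KO-labelled libraries. Its log2 difference of 0.25 was not called (SE 0.10, adjusted p = 0.0604), but it was called without control replicate 2 (0.0455).

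Hoxa7, the most abundant Hoxa gene per kilobase, was nearly equal at 49.6, 49.6 and 44.6 CPM in the controls and 50.2, 48.0 and 44.8 CPM in the Zfx-KO-labelled libraries (log2 difference -0.01, SE 0.07, limma adjusted p = 0.946). With equal medians it was lower by -0.22 (adjusted p = 0.0179), about the shift of all genes. Hoxa4 was higher, with 3.54, 3.42 and 3.23 CPM in the controls and 4.90, 5.42 and 4.75 CPM in the Zfx-KO-labelled libraries (log2 difference 0.56, SE 0.13, adjusted p = 0.00571, and 0.0987 with quantile normalization). Its groups did not overlap, but its exons overlap the antisense gene Gm29430. Hoxa5, which acts in the lung and the neck region, was lower at 5.59, 6.63 and 5.99 CPM in the controls and 4.21, 5.34 and 4.13 CPM in the Zfx-KO-labelled libraries. Its log2 difference of -0.42 (SE 0.14, adjusted p = 0.0358) was not called without control replicate 2 (0.0961), control replicate 3 (0.0727), Zfx-KO replicate 1 (0.106) or Zfx-KO replicate 3 (0.125), nor with no filter (0.152). Hoxa2, Hoxa3 and Hoxa6, at mean levels of 0.809 to 5.30 CPM, had log2 differences of -0.64, -0.08 and -0.55 and were not called. Hoxa6 was called lower without Zfx-KO replicate 2 (adjusted p = 0.0405), and Hoxa2 and Hoxa6 were called lower with equal medians (0.0215 and 0.0171) and with quantile normalization (0.00417 and 0.00817).

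The Hoxc cluster spans 115.8 kb, chr15:102921103-103036852, and held the most abundant gene. Hoxc10, which acts in the hindlimb and in lower-body fat and skin, stood at 100.3, 99.5 and 99.9 CPM in the controls and at 66.4, 65.7 and 62.4 CPM in the Zfx-KO-labelled libraries. The groups were tight and apart, with a log2 difference of -0.62 (SE 0.05, limma adjusted p = 9.89e-06). Its 5' neighbour Hoxc11 stood at 17.7, 16.7 and 17.3 CPM in the controls and at 9.51, 10.3 and 8.88 CPM in the Zfx-KO-labelled libraries. It fell by 0.85 log2 units (SE 0.09, adjusted p = 3.56e-05), and the groups did not overlap.

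Hoxc8 and Hoxc13 moved the other way. Hoxc8 was 1.01, 2.28 and 1.83 CPM in the controls and 3.10, 3.40 and 3.06 CPM in the Zfx-KO-labelled libraries, with no overlap (log2 difference 0.97, SE 0.27, limma adjusted p = 0.0150, but 0.186 with no filter and 0.112 with quantile normalization). Hoxc13, which acts in hair and nail, was 5.73, 5.66 and 5.27 CPM in the controls and 6.78, 7.51 and 6.76 CPM in the Zfx-KO-labelled libraries (log2 difference 0.34, SE 0.11, adjusted p = 0.0321). This call was lost in 5 of the 6 fits that leave out a library, all but that without control replicate 2, with adjusted p-values from 0.0596 (control replicate 1) and 0.0597 (Zfx-KO replicate 1) through 0.0689 (Zfx-KO replicate 3) and 0.0867 (control replicate 3) to 0.114 (Zfx-KO replicate 2). It was also lost with equal medians (0.401) and quantile normalization (0.405). Hoxc12, between Hoxc11 and Hoxc13, had 1 read in 1 control and none elsewhere.

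The remaining Hoxc genes were not called. Hoxc6 was 17.2, 29.3 and 19.7 CPM in the controls and 15.9, 29.2 and 19.1 CPM in the Zfx-KO-labelled libraries, so the spread within each group was far larger than the difference between them (log2 difference -0.05, SE 0.23). The values followed record order alike in both groups, and whether libraries were paired is not stated. Hoxc9 ranged from 9.50 to 13.3 CPM (log2 difference 0.16, SE 0.13, limma adjusted p = 0.352). Hoxc4 and Hoxc5 lay between 1.93 and 3.37 CPM in all libraries, with log2 differences of -0.14 (SE 0.18) and -0.11 (SE 0.19), and Hoxc4 was called lower with quantile normalization (adjusted p = 0.0304).

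Hotair, a long noncoding RNA of the Hoxc cluster that has been studied as a partner of Polycomb, had 60, 80 and 39 reads in the controls and 21, 37 and 29 reads in the Zfx-KO-labelled libraries. In CPM the groups overlapped, at 0.913 to 1.86 and 0.446 to 0.968. Its log2 difference was -1.08 (SE 0.36, limma adjusted p = 0.0321), a call lost without control replicate 1 (0.0728), control replicate 2 (0.103), Zfx-KO replicate 1 (0.0789) or Zfx-KO replicate 3 (0.112), and with no filter (0.252). Over all 48 other rows inside the clusters, Evx1 and Evx2 included, 22 had 0 reads in all libraries and 21 were tested, of which 4 were higher and 3 lower (33.3% called, beside 44.4% of all genes). Of the 4 higher rows, Mir196a-1 and Hoxb3os passed the filter only or mainly through the Zfx-KO-labelled libraries. The split was 3 higher and 4 lower with equal medians and 2 higher and 7 lower with quantile normalization.

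The other called rows were scarce or overlapped Hox genes. Gm28793, between Hoxd10 and Hoxd9, had 5, 9 and 3 reads in the controls and 1 read in each Zfx-KO-labelled library (log2 difference -1.69, limma adjusted p = 0.0258). That call was lost without control replicate 1 (0.0630), control replicate 2 (0.109), Zfx-KO replicate 1 (0.0573), Zfx-KO replicate 2 (0.0585) or Zfx-KO replicate 3 (0.0936), and with no filter (0.507). 9530018H14Rik in Hoxa had 8, 30 and 15 reads in the controls and 2, 5 and 5 reads in the Zfx-KO-labelled libraries (log2 difference -1.88, adjusted p = 0.0153, but 0.0608 without control replicate 2 and 0.157 with no filter). Hoxd3os1, with exons over those of Hoxd3, was higher at 124, 143 and 104 reads in the controls and 165, 185 and 261 reads in the Zfx-KO-labelled libraries (log2 difference 0.61, adjusted p = 0.0117, but 0.0586 with equal medians, 0.131 with quantile normalization and 0.0681 with no filter). Evx1, the homeobox gene beyond Hoxa13, had 0 reads in all libraries, and Evx2, beyond Hoxd13, had 2, 1 and 1 reads in the controls and 1, 3 and 0 reads in the Zfx-KO-labelled libraries.

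Read across clusters, paralogs of the same number did not all move alike. In group 10, Hoxa10, Hoxc10 and Hoxd10 were all lower. In group 13, Hoxa13 and Hoxd13 were lower and Hoxc13 was higher, a call lost in most fits that leave out a library. Hoxb13, with 0, 5 and 3 reads in the controls and 0 in the Zfx-KO-labelled libraries, was not tested. In group 9, Hoxb9 was higher, Hoxd9 was lower, and Hoxa9 and Hoxc9 were not called. In group 8, Hoxb8 and Hoxc8 were higher and Hoxd8 was lower. Of these, Hoxb8 could only be called higher, and the call of Hoxc8 was lost with no filter and with quantile normalization. In groups 3 and 6, none of the 3 genes of either group was called, and the log2 differences lay between -0.32 and -0.08 and between -0.55 and -0.05.

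Hox proteins bind DNA with the TALE homeodomain factors of the Meis, Pbx, Pknox and Tgif families, and 10 of these 11 cofactor genes were tested. Of the 10, 2 were higher and 3 lower (50.0%, near the 44.4% of all genes), and with equal medians 1 was higher and 7 lower. Meis1, a Hox cofactor known for its part in leukemia, was 31.5, 34.4 and 29.8 CPM in the controls and 23.1, 23.1 and 21.3 CPM in the Zfx-KO-labelled libraries (log2 difference -0.50, limma adjusted p = 0.000520). The groups did not overlap. Pknox1 fell by 0.42, while Pknox2 rose by 0.58, from 78.0 ± 0.760 to 117 ± 6.70 CPM (SD, n = 3, adjusted p = 2.81e-05). Tgif1 was 0.26 higher (adjusted p = 0.0275), a call lost with equal medians (0.675), with no filter (0.223), and without control replicate 2 (0.0676), control replicate 3 (0.0603) or Zfx-KO replicate 1 (0.110). Meis2, Meis3, Pbx2, Pbx3 and Tgif2 had log2 differences of -0.24 to -0.03 and were not called, and Pbx4 had at most 1 read in a library.

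All 36 genes on the Polycomb list were tested, and 10 were higher and 14 lower (66.7% called, beside 44.4% of all genes), with 1 change of at least 2-fold. The difference between these shares and the part of expression level in it were not tested. That gene was Epop, which tunes Polycomb activity at promoters, at 93.7, 96.5 and 114 CPM in the controls and 49.3, 51.3 and 45.7 CPM in the Zfx-KO-labelled libraries (log2 difference -1.05, limma adjusted p = 4.84e-06). Cbx2, a subunit of Polycomb complex PRC1 that reads histone methylation, fell by 0.91, and Kdm2b, which brings a variant of that complex to CG-rich DNA, fell by 0.87. Scmh1, Phc3, Pcgf6, Pcgf3, Rnf2 and Bmi1, all PRC1 genes, had log2 differences of -0.87 to -0.53, while Ring1 (0.60), Phc1 (0.25), Pcgf2 (0.24), Cbx8 (0.23) and L3mbtl2 (0.23) were higher. The calls of Phc1, Pcgf2, Cbx8 and L3mbtl2 were lost with equal medians (adjusted p of 0.750 to 0.904) and without at least 1 library, Zfx-KO replicate 1 for Pcgf2 (0.0501) and L3mbtl2 (0.0940) and Zfx-KO replicate 2 for Phc1 (0.0616) and Cbx8 (0.0503) among them. Of the PRC2 genes, Rbbp4 (-0.55), Rbbp7 (-0.54) and Suz12 (-0.36) were lower, Jarid2 (0.59), Phf1 (0.33), Ezh1 (0.28) and Eed (0.22) were higher, and the methyltransferase Ezh2 was not called (-0.09, adjusted p = 0.391). Suz12 was not called without Zfx-KO replicate 3 (0.0505) or with no filter (0.199), and Phf1, Ezh1 and Eed were not called with equal medians (0.289, 0.431 and 0.982). Eed was also not called without control replicate 1 (0.0557), control replicate 3 (0.0728), Zfx-KO replicate 1 (0.0792) or Zfx-KO replicate 2 (0.0702).

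Of 17 genes on the Trithorax list, 2 were higher and 5 lower (41.2%, near the 44.4% of all genes). Wdr5 and Psip1 were lower (log2 differences -0.54 and -0.51), Mllt3 and Kmt2d were higher (0.38 and 0.34), and Kmt2a, which keeps Hox genes active, was not called (0.09, limma adjusted p = 0.710). Mllt3 and Kmt2d were not called with equal medians (0.161 and 0.394) or with no filter (0.157 and 0.381). Kmt2d was also not called without control replicate 1 (0.116), control replicate 3 (0.0788), Zfx-KO replicate 2 (0.122) or Zfx-KO replicate 3 (0.0603). The other lower genes were Ash2l (-0.20), Kansl1 (-0.18) and Mllt10 (-0.22). None of them was called with quantile normalization (limma adjusted p of 0.133, 0.387 and 0.0696). Each was also not called without some single libraries, Zfx-KO replicate 3 among them (0.058, 0.0849 and 0.125). Over the Polycomb and Trithorax lists together, 12 were higher and 19 lower, against 2 and 29 with equal medians and 14 and 16 with quantile normalization, and Asxl1 turned from 0.17 to -0.04 with equal medians. CTCF and cohesin hold the borders of chromatin domains within the clusters. Of their 7 genes, 5 were lower and none higher, beside 19.5% and 24.9% of all genes. That difference and the part of expression level in it were not tested. The lower genes were Nipbl (-0.49), Rad21 (-0.44), Stag2 (-0.42), Smc3 (-0.29) and Ctcf (-0.21), and with no filter 2 of them were called. Ctcf was also not called with quantile normalization (limma adjusted p = 0.229) or without any one library but control replicate 3 (0.0506 to 0.149).

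**Figure D5:**
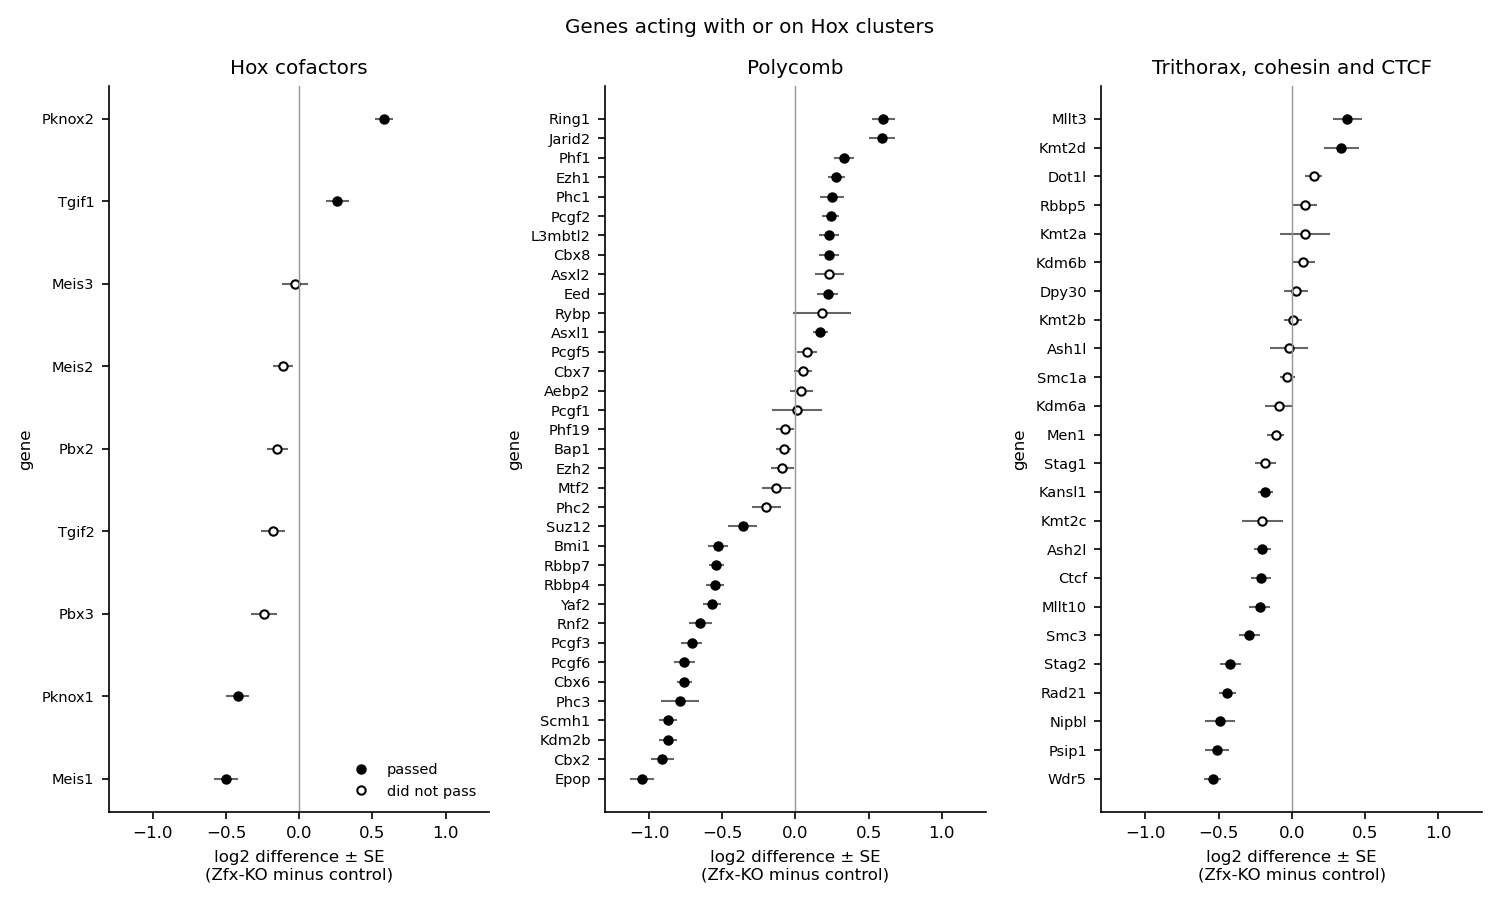
Log2 difference (Zfx-KO minus control, horizontal axis, bars SE) of Hox cofactor genes, Polycomb genes, and the Trithorax, cohesin and CTCF genes; filled symbols passed a limma adjusted p under 0.05. Values run from -1.05 (Epop) to 0.60 (Ring1), a narrower range than that of the Hox genes.

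Genes that flank the clusters were compared to see how far each pattern extended along the chromosome. Of 22 flanking genes 19 were tested, and 5 were higher and 8 lower, 68.4% beside 44.4% of all genes, a difference that was not tested (2 higher and 10 lower with equal medians). On the 5' side of Hoxd, Lnpk, 89.4 kb from the cluster, stood at 46.1, 46.5 and 42.0 CPM in the controls and at 27.5, 25.5 and 23.9 CPM in the Zfx-KO-labelled libraries. The groups did not overlap, and the log2 difference of -0.81 (SE 0.08, limma adjusted p = 1.74e-05) was smaller than that of Hoxd8 to Hoxd13. On the 3' side, Mtx2, 60.7 kb away, fell by 0.36. Further out on the 5' side, Atp5g3 at 757 kb fell by 0.47, Atf2 at 775.7 kb was not called (-0.03), and Chn1 at 893 kb rose by 0.86.

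Around Hoxb, whose called genes rose, 3 of the 4 tested neighbours fell. Copz2, Nfe2l1 and Cbx1, 420.9 to 481.6 kb away, fell by 0.73, 0.31 and 0.29, while Snx11 at 399.3 kb was higher by 0.24 (limma adjusted p = 0.00883, but 0.787 with equal medians). The nearer Ttll6 and Skap1 had at most 4 reads in a library and were not tested. No listed neighbour of Hoxb nearer than 399.3 kb was thus tested, so how far the rise extended was not measured. Around Hoxa, Skap2 rose by 0.28 (adjusted p = 0.442 with equal medians) and Hibadh fell by 0.59, and around Hoxc, Smug1 rose by 0.37 (adjusted p = 0.0896 with equal medians) while Calcoco1 (0.14) and Cbx5 (-0.02) were not called. The call of Cbx1 (limma adjusted p = 0.0201) was lost without Zfx-KO replicate 1 (0.0699) or Zfx-KO replicate 3 (0.0600), with quantile normalization (0.0623) and with no filter (0.210). Jazf1, at 0.0233 to 0.165 CPM in the controls and 0.200 to 0.344 CPM in the Zfx-KO-labelled libraries, had a log2 difference of 1.92 (adjusted p = 0.0267), a call lost without any one library but control replicate 1 (0.0533 to 0.0930), with quantile normalization (0.136) and with no filter (0.272). Of the ParaHox genes, relatives of the Hox genes that include the colon regulators Cdx1 and Cdx2, 5 of 6 had 0 reads in every library, and Cdx1 had 1, 1 and 4 reads in the controls and 1, 3 and 2 reads in the Zfx-KO-labelled libraries.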

How the data were processed

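RNA from the sorted tumor cells was sequenced as single-end reads of 50 bases, per the labels' protocols. The deposited table holds log2 values, which were taken to be log2 CPM after adding 1 read, scaled by library size (floor -5.48715). All low values (under 2000 reads) gave whole reads within 0.05 reads, from which depths, reads and CPM were recovered. The submitters' processing notes name GRCh38 and mm10 without a role. The sources used here give no aligner, counter or strand setting. The size column, in bases of exon, is that of the deposited table, as are coordinates, and chromosomes are from GENCODE M21 (GRCm38), where 27 of the 39 Hox genes have the same start and end.

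Genes detected in 3 or more libraries, and on average 1 log2 unit or more above the floor, were tested (20094) with limma 3.58.1 in R 4.3.3, with an intensity trend, two-sided and with Benjamini-Hochberg adjustment over all of them (threshold 0.05). The fit was also run on simulated reads with the same fixed spread for every gene. The outcome is not quoted and is not used as support here. Log2 differences include the prior and understate changes of scarce genes, and intervals cover counting error only. A floor is 3 reads. A fold against it uses the reads observed in the other group, without their counting error. The labels give no replicate numbers, so replicates were numbered in record order. No pair of replicates agreed within sampling noise (mean chi-square of 13.2 to 25.4 for each gene), and each library was counted as 1 sample, with separate mice neither shown nor stated. The Hox genes and all lists were chosen with earlier results of these data known. Every Hox gene may be named, and of the lists every gene past the threshold, with the others named by value. Some genes of the clusters and lists are not reported here. The alternatives were other filters, scalings and priors, limma voom on recovered reads (8979 genes called, against 8927), thinned reads and leaving out each library. Promoter and miRNA sequences are from RefSeq tables, searched with Python 3.11.15, pandas 2.3.3 and numpy 2.4.6. Figures used matplotlib 3.10.9.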

Additional observations from a re-analysis of the deposited data

How the results depend on the processing

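The number of Hox genes called was 16 and ran from 11 with no filter to 21 with equal medians over the 14 alternatives, and from 12 to 15 when a library was left out. Hoxd8, Hoxd9, Hoxd10, Hoxd13, Hoxa10, Hoxb9, Hoxc10 and Hoxc11 were called in the same direction in each of them. Hoxb2 was too, except that the stricter filter did not test it. With no filter, calls fell from 8927 to 5787 over all genes, from 5 to 2 of the cohesin and CTCF genes and from 7 to 1 of the other rows inside the clusters. The stricter filter, a mean at least 3 log2 units above the floor, left 4 of those rows called, since it tests fewer scarce genes, and leaving out a library gave 3 to 7. With equal medians, 8 cofactor genes were called against 5, and Asxl1 (-0.04), which had been called higher, and Kmt2b (-0.21), which had not been called, changed sign. Equal medians gave 3224 higher and 6357 lower of all genes, against 5003 and 3924. Why calls moved was otherwise not tested. No paired analysis was run, because the labels give no replicate numbers, batches or pairs. Some values, such as those of Hoxc6 and Kmt2a, followed record order alike in both groups. In an unpaired fit such shared spread adds to the SEs, and its part was not tested. Depth limits Hoxb7, Hoxb8, Hoxb13, Hoxc12, Hoxd12 and the scarce noncoding rows, which rest on a few reads.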
